A study of Mus musculus with 20 samples.

Results

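The 31 genes described here encode the proteins of myelin and of the mature oligodendrocytes that make it. They were chosen by gene symbol, and each of the 31 symbols matched 1 row of a count table of 29671 genes. The table holds the amygdala transcriptome of 20 male C57B6 mice, bred in house from Taconic stock and taken at postnatal day 84. The mice fall into 4 groups of 5, F1 or F2 generation by stress or no-stress lineage, where the stress lineage descends from mice put through chronic unpredictable stress in adolescence. The sampled mice were themselves behaviourally naive, and all 4 groups are of the 1 strain, with no transgene or drug named. RNA came from bilateral punches of 1.2 mm and was made into poly-A libraries with a stranded kit, so each library is bulk tissue holding neurons, glia and vessels together. The labels number the mice 1 to 5 (F1 stress), 6 to 10 (F1 no-stress), 11 to 15 (F2 stress) and 16 to 20 (F2 no-stress), and values below are given in that order within each group. The design text calls them biological replicates but the labels name no litters, so p-values measure the spread between these mice. The stressed parent, father or mother, is not named in the labels.

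Oligodendrocytes wrap axons in myelin, a stack of compacted membrane rich in galactolipids and cholesterol, held together by a small number of very abundant proteins such as the products of Mbp and Mobp. Their differentiation is driven by the transcription factor Sox10, which induces Myrf, and the 2 proteins then act together on the promoters and enhancers of myelin genes. In the forebrain most myelin lies in fibre bundles and white matter, while grey matter such as the amygdala holds thinner and patchier myelin.

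The starts of the myelin genes are shown first, and whether their motifs have a part in the levels described below was not tested. RefSeq promoter windows (mouse build GRCm38.p6) were matched by symbol for 21 of the 31 genes, in 30 windows, and 10 genes had no entry (Trf, Sox10, Enpp2, Fa2h, Cryab, Adamts4, Ndrg1, Myrf, Car2 and Mbp). The letters searched, on both strands, were ACAAAG for SOX proteins, and CTGGCAC and CTGGTAC for Myrf, with no overlap between the motifs. ACAAAG was present in 10 of the 30 windows, from 8 of the 21 genes, and in 18.7% of 32851 windows of the same length across the genome. A gene can have more than 1 window, as Mag has 3, so windows are not separate genes, and enrichment was not tested. CTGGCAC was present in 5 windows, of Cnp, Hapln2, Mag and Opalin, against 5.01% of all windows. Both ACAAAG and CTGGCAC stood in windows of Cnp, Mag and Opalin, against 0.977% of all windows, and CTGGTAC stood in the window of Mog, against 2.24%. The first 4 windows below are those genes, and the last is Mal, the gene with the highest F2 stress to no-stress fold change of the 31, whose window held none of the 3 motifs. Each is written 5′ to 3′ along the gene's strand, with the matches, in either orientation, in capitals.
Mag (chr7:30914814-30915113, minus strand): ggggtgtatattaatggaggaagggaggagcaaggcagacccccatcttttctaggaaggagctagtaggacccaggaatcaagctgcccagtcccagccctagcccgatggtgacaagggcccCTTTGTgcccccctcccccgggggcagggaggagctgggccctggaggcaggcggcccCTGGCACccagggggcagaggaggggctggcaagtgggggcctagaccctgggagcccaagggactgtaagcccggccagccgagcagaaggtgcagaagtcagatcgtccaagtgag
Cnp (chr11:100574689-100574988, plus strand): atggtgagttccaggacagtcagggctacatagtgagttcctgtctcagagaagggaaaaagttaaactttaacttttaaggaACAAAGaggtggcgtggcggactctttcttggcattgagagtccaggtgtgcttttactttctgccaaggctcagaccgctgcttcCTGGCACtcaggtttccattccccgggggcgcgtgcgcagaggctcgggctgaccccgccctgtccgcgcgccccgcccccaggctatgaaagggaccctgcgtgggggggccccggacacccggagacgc
Opalin (chr19:41077064-41077363, minus strand): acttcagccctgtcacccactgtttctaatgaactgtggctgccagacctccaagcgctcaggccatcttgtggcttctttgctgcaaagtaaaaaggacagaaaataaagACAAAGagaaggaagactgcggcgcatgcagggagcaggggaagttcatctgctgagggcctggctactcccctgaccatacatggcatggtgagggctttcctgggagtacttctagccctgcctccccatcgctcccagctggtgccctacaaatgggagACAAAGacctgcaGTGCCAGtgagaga
Mog (chr17:37023349-37023648, minus strand): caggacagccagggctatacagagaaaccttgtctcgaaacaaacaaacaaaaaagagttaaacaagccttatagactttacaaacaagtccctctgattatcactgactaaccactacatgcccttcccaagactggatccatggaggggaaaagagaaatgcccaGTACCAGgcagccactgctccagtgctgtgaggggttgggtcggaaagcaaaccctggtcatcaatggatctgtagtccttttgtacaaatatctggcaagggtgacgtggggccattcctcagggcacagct
Mal (chr2:127656646-127656945, minus strand): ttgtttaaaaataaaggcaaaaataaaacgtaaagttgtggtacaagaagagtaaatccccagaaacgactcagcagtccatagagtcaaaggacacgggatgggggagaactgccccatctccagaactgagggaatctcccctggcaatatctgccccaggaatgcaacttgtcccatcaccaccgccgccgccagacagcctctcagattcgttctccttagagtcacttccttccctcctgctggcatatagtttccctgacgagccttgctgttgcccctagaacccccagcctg
A match describes the letters only, and the data hold no measurement of binding at these starts.

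All 31 genes passed the filter on low counts, among 16727 genes tested. Library totals lay between 13654890 and 13714805 counts, a spread of 0.439%, so depth was near equal. Levels are in CPM, counts scaled to a common library size with TMM factors between 0.956 and 1.042, and differences are log2 fold changes with their standard error from edgeR. Markers of myelinating cells outside the brain were near the floor, as 3 of 6 Schwann cell genes in the table passed the filter and their sum was 2.95 to 14.5 CPM, while the 31 genes summed to 1991 to 5929 CPM. Their share of all counts ran from 0.207% to 0.602%.

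Per kilobase of longest transcript, the structural proteins led. Mbp, which binds the cytoplasmic faces of the myelin membrane together, had a mean level of 259 CPM per kb over the 20 libraries, and Mobp, a further compact-myelin protein, had 168. Cnp, an enzyme of the non-compact cytoplasmic channels, had 104 CPM per kb and Mal, a raft proteolipid that sorts myelin cargo, 98.7. Trf, the iron carrier transferrin that oligodendrocytes make, reached 88.9. The adhesion protein Mag (chr7:30899176-30914873), which faces the axon, had 54.3 CPM per kb, and Mog, on the outer surface of the sheath, had 33.9. Transcription factors were lower per kb, at 9.71 for Sox10, 8.42 for Myrf and 1.25 for Nkx6-2, a homeodomain protein and the lowest of the 31. Among lipid enzymes, Ugt8a, which makes galactocerebroside, had 14.9 CPM per kb, Fa2h, which hydroxylates its fatty acid, 13.3, and Gal3st1, which sulfates it, 2.77.

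The levels varied widely between mice. The median ratio of the highest to the lowest library was 3.48 for the 31 genes and 1.93 for all genes tested. It was lowest for Car2, the carbonic anhydrase of oligodendrocytes, at 1.87, and highest for Gjb1, a gap junction protein, at 6.44. In bulk tissue, fewer oligodendrocytes and less myelin RNA per cell cannot be told apart, here or in any result below.

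In each group 1 mouse was low in nearly all of the 31 genes. Mouse 14 was the lowest F2 stress mouse in 30 of 31 genes and mouse 17 the lowest F2 no-stress mouse in 31 of 31. In F1, mouse 8 was the lowest no-stress mouse in 27 genes and mouse 1 the lowest stress mouse in 25. The highest mice were also shared between genes. Mouse 20 led F2 no-stress in 26 genes, mouse 6 led F1 no-stress in 26, mouse 3 led F1 stress in 22, and mice 15 and 13 led F2 stress in 17 and 9. The mean log2 CPM of the 31 genes was 4.74 in mouse 14 and lay between 5.28 and 6.3 in the other 19 mice. By group it was 5.71 ± 0.316 in F1 no-stress, 5.69 ± 0.302 in F1 stress, 5.91 ± 0.348 in F2 no-stress and 5.71 ± 0.555 in F2 stress (SD, n = 5 each).

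Mag shows the pattern. Its levels were 158, 138, 76.5, 124 and 89.5 CPM in the F1 no-stress mice and 81.4, 107, 152, 166 and 105 CPM in the F1 stress mice. In F2 they were 196, 122, 174, 149 and 197 CPM in the F2 no-stress mice and 130, 111, 142, 54.3 and 168 CPM in the F2 stress mice. Mouse 14 was below every other mouse, the groups overlapped in both generations, and the means were 117 ± 33.6 CPM, 122 ± 35.4 CPM, 168 ± 32.1 CPM and 121 ± 42.8 CPM (SD, n = 5 each, in the order F1 no-stress, F1 stress, F2 no-stress, F2 stress).

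Mbp followed the same mice. It stood at 1610, 1300, 833, 1410 and 1050 CPM in the F1 no-stress mice and 817, 967, 1390, 1350 and 1190 CPM in the F1 stress mice. The values were 1770, 914, 1500, 1450 and 1800 CPM in the F2 no-stress mice and 997, 992, 1180, 566 and 1710 CPM in the F2 stress mice. The groups overlapped, with mouse 14 lowest and mice 16, 20 and 15 highest in F2. Cnp read 344, 308, 189, 274 and 228 CPM in the F1 no-stress mice and 197, 220, 330, 338 and 248 CPM in the F1 stress mice. In F2, Cnp read 379, 247, 355, 323 and 392 CPM in the F2 no-stress mice and 377, 307, 450, 138 and 409 CPM in the F2 stress mice. Mouse 13, at 450 CPM, was the highest of all 20 for Cnp and mouse 14, at 138, the lowest.

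**Figure D1:**
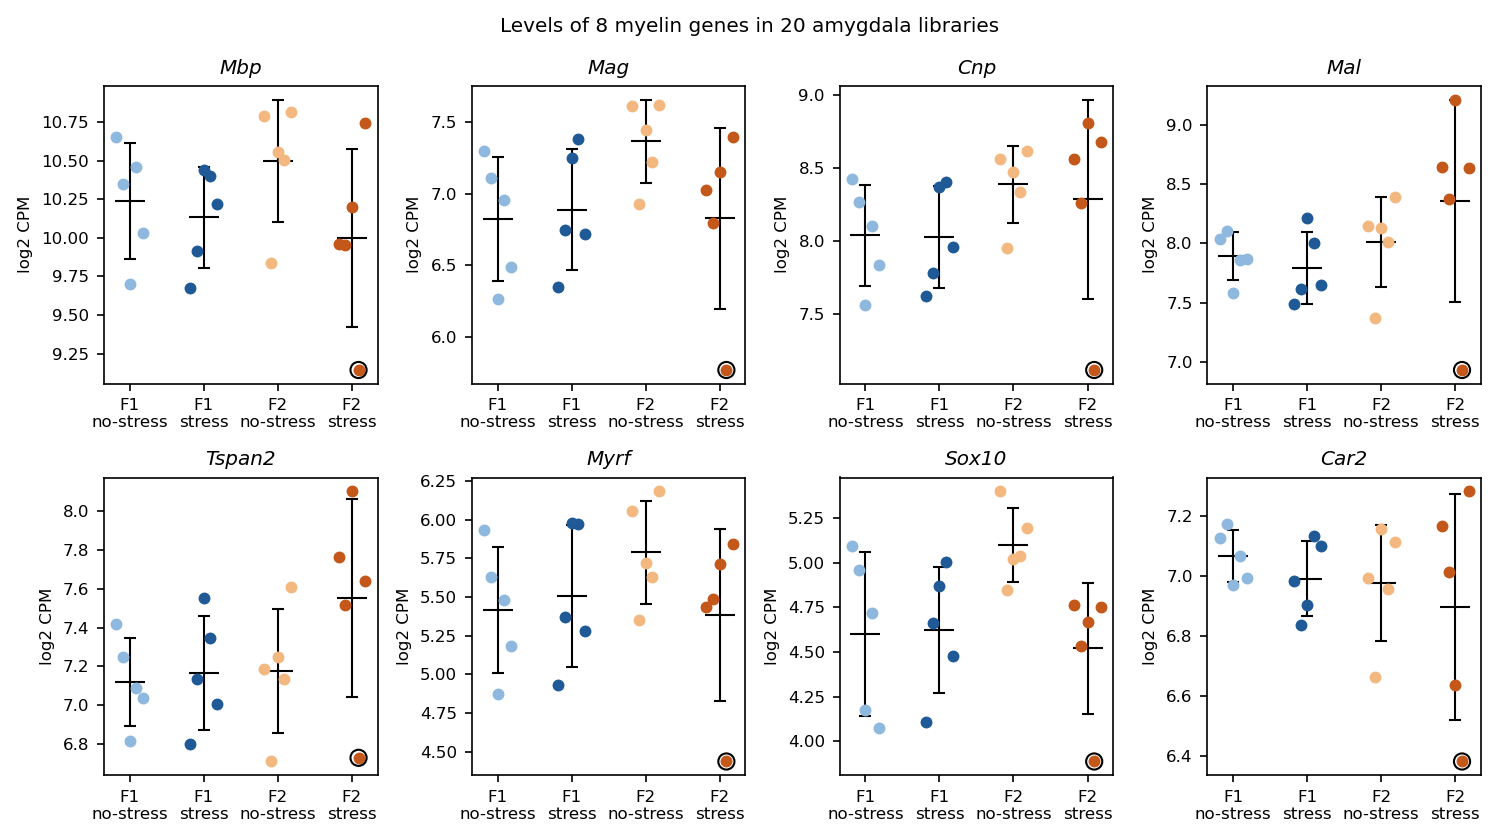
Level of 8 myelin genes on the vertical axis (log2 CPM) in the 4 groups, with 1 point for each mouse, a bar at the group mean and whiskers of 1 SD (n = 5). The circled point is mouse 14 of F2 stress, the lowest of its group in 30 of the 31 genes, and the groups overlap in every panel except Sox10 in F2.

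How closely the genes moved with each other was measured within the 4 groups. Each gene was fitted on the log2 CPM of Mag, centred within each group, over the 20 libraries, and the slope is the log2 change of the gene per unit of log2 change of Mag. Of the other 30 genes, 27 rose with Mag after adjustment over all genes tested (edgeR quasi-likelihood test, Benjamini-Hochberg), all 30 slopes were positive, and their median was 0.87. Over all 16726 genes the median slope was 0, 2.51% rose with Mag and 3.92% changed in either direction. Of the 31 genes with the smallest p in this fit, 8 were of the set. Mag shares these libraries and their scaling with the genes set against it. With Mog in place of Mag, 28 of 30 passed.

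The regulator Myrf had the smallest p of the set, with a slope of 0.95 ± 0.0633 (SE, adjusted p = 4.53e-08). Its levels were 60.8, 49.3, 29.1, 44.4 and 36.2 CPM in the F1 no-stress mice and 30.4, 41.1, 63, 62.7 and 38.7 CPM in the F1 stress mice. In F2 they were 66.3, 40.7, 52.6, 49.3 and 72.6 CPM in the F2 no-stress mice and 43.1, 44.7, 52.4, 21.5 and 57.2 CPM in the F2 stress mice. The lowest value was that of mouse 14 and the highest that of mouse 20. Sox10, which acts above Myrf, had a slope of 0.73 ± 0.0804 (adjusted p = 1.36e-05), under 1, so its fitted log2 change was smaller than that of Mag. The slope of Cnp was 0.93 ± 0.0711 (adjusted p = 2.9e-07), of Fa2h 0.95 ± 0.0774 (5.44e-07), of Trf 1.01 ± 0.0865 (7.39e-07) and of Mbp 0.87 ± 0.0885 (4.97e-06). Cldn11, the tight junction protein that seals the sheath, had a slope of 1.01 ± 0.0997.

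Slopes well under 1 were found for Qdpr, Ndrg1, Enpp2 and Car2, among others. The slope was 0.51 ± 0.086 for Qdpr, which regenerates tetrahydrobiopterin, 0.6 ± 0.0771 for Ndrg1 and 0.64 ± 0.107 for Enpp2, the lysophospholipase autotaxin. All 3 passed. Car2 did not, at 0.33 ± 0.0925 (adjusted p = 0.0523), nor did Gal3st1, at 0.48 ± 0.14 (adjusted p = 0.0581), or the scarce Nkx6-2, at 0.62 ± 0.319 (adjusted p = 0.339). Car2 had the narrowest range of the set, close to the median of all genes, at 140, 144, 125, 134 and 127 CPM in the F1 no-stress mice and 126, 114, 119, 140 and 137 CPM in the F1 stress mice. In F2 it read 127, 101, 142, 124 and 138 CPM in the F2 no-stress mice and 143, 129, 99.5, 83.3 and 155 CPM in the F2 stress mice. Its lowest value, 83.3 CPM, was again in mouse 14, and mouse 13, the highest of its group in 9 of the 31 genes, was next lowest at 99.5 CPM. Leaving out each mouse in turn, 27 to 29 of the 30 genes passed.

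**Figure D2:**
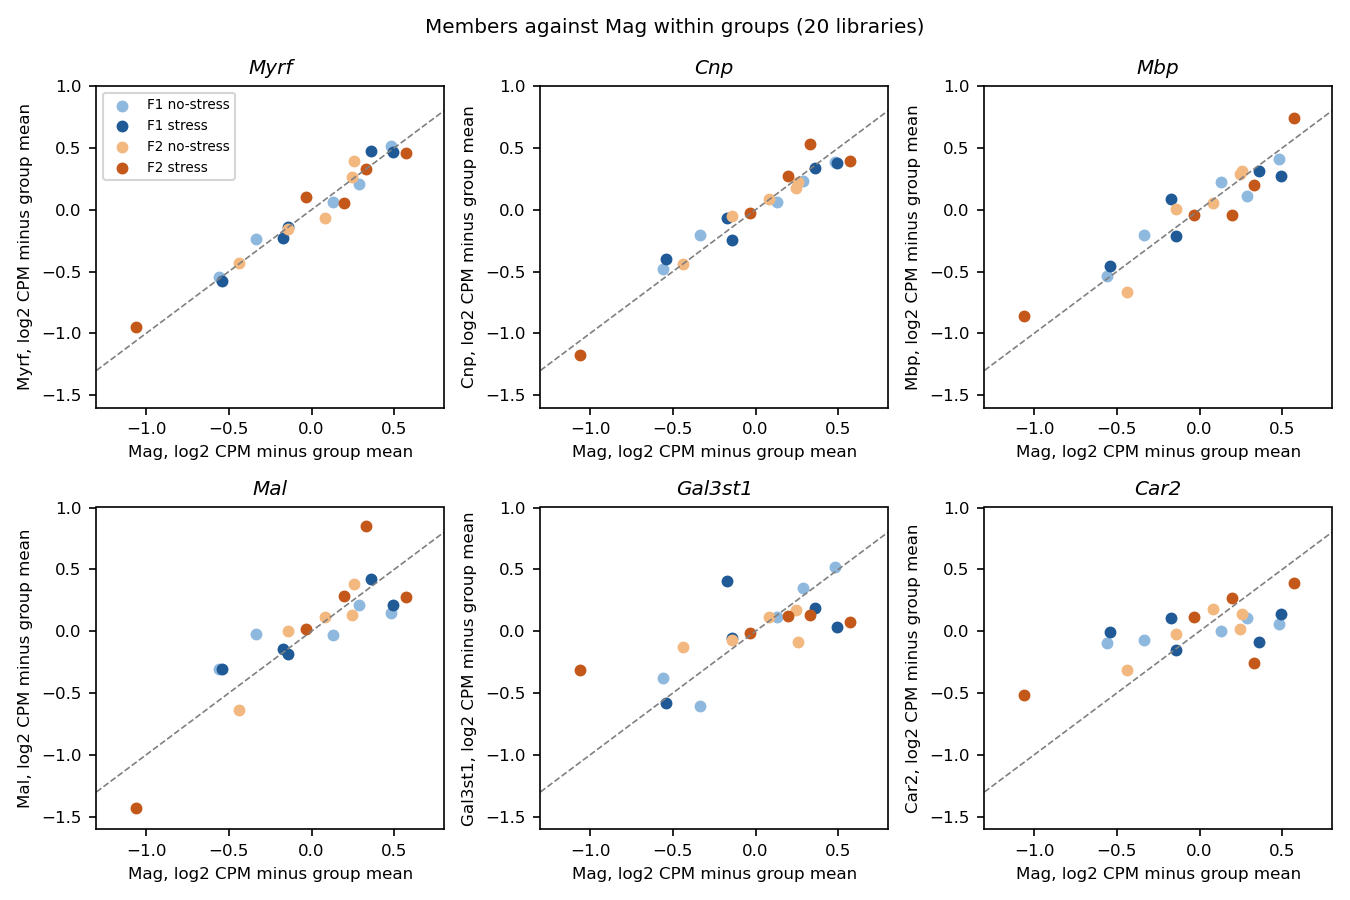
Log2 CPM of 6 myelin genes against that of Mag, both as the difference from the group mean, with 1 point for each of the 20 libraries, coloured by group, and a dashed line where the 2 differences are equal. Myrf, Cnp and Mbp follow the line (slopes 0.95, 0.93 and 0.87), Mal follows it with more scatter (0.93), and Gal3st1 and Car2 rise less steeply (0.48 and 0.33).

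Outside all gene lists used here, the 5 genes with the smallest p for the slope on Mag, at a mean of at least 1 CPM, were Gm20425, Itgb4, Tmem63a, Gltp and Pde8a. Itgb4, an integrin subunit, had a slope of 1.28 ± 0.118 (adjusted p = 2.02e-06) and Gltp, a glycolipid transfer protein, 0.7 ± 0.0668 (2.72e-06). Tmem63a gave 0.92 ± 0.0853 and Pde8a, a phosphodiesterase, 0.91 ± 0.0919. Gm20425 (0.96 ± 0.0814) overlaps Trf on the same strand in GENCODE M21, so reads of Trf could be counted to it and its value is uncertain. Genes on the opposite strand overlap Cnp (Dnajc7), Nkx6-2 (Inpp5a), Cryab (Hspb2), Ermn (Galnt5) and Tspan2 (Tspan2os), and whether counting used strand is not given in the sources used here.

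Other oligodendrocyte lists moved with the set in part. Among 32 further mature oligodendrocyte and myelin genes, 23 rose with Mag and the median slope was 0.72. Gpr37, a receptor of maturing oligodendrocytes, had a slope of 0.81 ± 0.0689, Galnt6 1.07 ± 0.1, Gsn, the actin-severing gelsolin, 0.72 ± 0.0777, and Plekhh1 0.89 ± 0.102. Of 18 genes of precursors and newly formed oligodendrocytes, 6 rose with Mag and the median slope was 0.34. Olig1 (0.47 ± 0.0893) is in both of these lists and is counted among the genes that rose in each. Bcas1, which marks early myelinating cells, had a slope of 0.99 ± 0.13 (adjusted p = 9.4e-05), Enpp6 1.09 ± 0.219 (0.00582) and Tcf7l2 1.92 ± 0.388 (0.0068). Pdgfra, the growth factor receptor of precursors, gave 0. Of 26 tested genes of myelin lipid synthesis, 7 rose. Cers2, the ceramide synthase for very long acyl chains, had a slope of 0.45 ± 0.0768 and Elovl1, which lengthens them, 0.55 ± 0.116. Cerk was at 0.53 ± 0.0978 and Elovl5 at 0.39 ± 0.0744. The median slope of that list was 0.07.

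Markers of other cells moved with the set too, and their part in it was not tested. Of 10 microglial markers 4 rose with Mag (Csf1r, C1qb, C1qa and Tmem119, slopes 0.34 to 0.53), as did 1 of 11 astrocyte markers (Aldh1l1, 0.3 ± 0.0827) and 0 of 10 endothelial markers. No slope in these 3 lists was negative, and the medians were 0.35, 0.14 and 0.26 in that order. Neuronal content of the punches was followed with 2 further lists. All 14 markers of striatal medium spiny neurons had positive slopes (median 0.72) and all 12 markers of pallial excitatory neurons had negative slopes (median -0.88), and none of the 26 passed. Their sums varied widely within each group, from 905 to 10600 CPM over F2 stress (striatal) and from 280 to 1940 CPM over F2 no-stress (pallial). The mean striatal sum was 6640 ± 2730 CPM in F1 no-stress, 3670 ± 1270 in F1 stress, 5470 ± 2690 in F2 no-stress and 4830 ± 3640 in F2 stress (SD). All 14 striatal markers were negative between the F1 lineages (median -0.85) and positive in the interaction (median 0.71), and none passed. Their part in the lineage comparisons below was not tested. Mouse 20, highest for the set, had the lowest pallial sum, and mouse 14, lowest for the set, the lowest striatal sum. The Schwann cell list gave 1 fall with Mag, Scn7a at -2.14 ± 0.345 (adjusted p = 0.000999). The other 2 genes tested from that list, Egr2 and Ncmap, did not pass, at 0.21 and 0.16. No choroid plexus or fibroblast marker passed. The 9 fibroblast and meningeal markers had no negative slope (median 0.43). Of the choroid plexus markers, 3 slopes were positive and 2 negative (median 0.17).

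**Figure D3:**
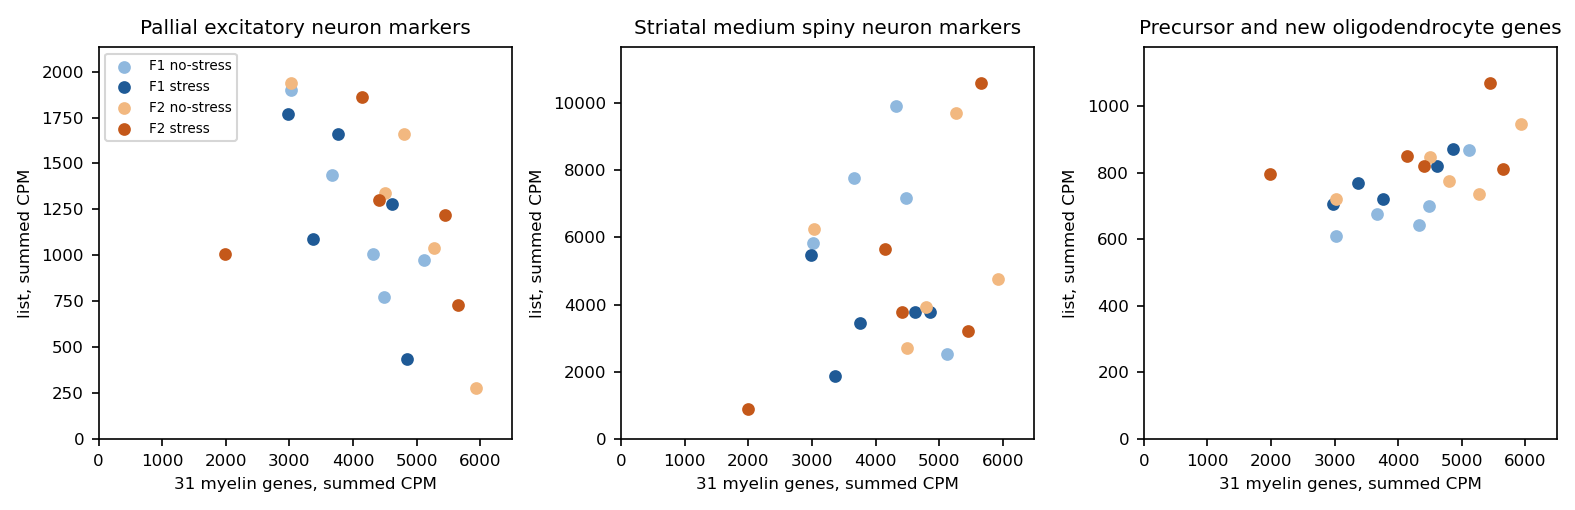
Summed CPM of 3 marker lists (vertical axes) against summed CPM of the 31 myelin genes (horizontal axis), with 1 point for each of the 20 libraries, coloured by group. Mouse 14 lies at 1991 CPM of myelin genes with 905 CPM of striatal markers, and mouse 20 at 5929 CPM with 280 CPM of pallial markers.

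The first comparison asked whether lineage altered the set in F1. None of the 31 genes passed the test between F1 stress and F1 no-stress mice, by edgeR, DESeq2 or limma-voom, and 0 had an unadjusted p under 0.05. Of all 16727 genes edgeR called 0 (0%), with 1030 at an unadjusted p under 0.05. The median log2 fold change was 0 for the 31 genes and 0 for all genes, and their adjusted p ran from 0.757 to 0.999. The median standard error of the 31 was 0.253. The widest differences were -0.30 ± 0.251 for Opalin, a transmembrane protein of the paranodal loops, and 0.23 ± 0.414 for Nkx6-2. Opalin read 23.3, 26.1, 16, 22.7 and 19.8 CPM in the F1 no-stress mice and 14.6, 16.1, 20.9, 19.9 and 16.2 CPM in the F1 stress mice, and the groups overlapped. Nkx6-2 read 3.36, 3.13, 0.679, 1.27 and 1.22 CPM in the F1 no-stress mice and 0.831, 2.63, 2.29, 3.29 and 2.33 CPM in the F1 stress mice, and mice 1, 8, 9 and 10 were the low ones.

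The other genes described in F2 below also overlapped between the F1 groups. Mog read 58.8, 58.4, 41, 50.2 and 47.8 CPM in the F1 no-stress mice and 36.8, 38.9, 59.2, 54.1 and 44.6 CPM in the F1 stress mice. Mobp read 630, 509, 381, 574 and 505 CPM in the F1 no-stress mice and 361, 402, 628, 531 and 426 CPM in the F1 stress mice. Mal read 263, 275, 191, 232 and 233 CPM in the F1 no-stress mice and 179, 195, 297, 256 and 200 CPM in the F1 stress mice. In all 3, mouse 1 was the lowest of F1 stress and mouse 8 of F1 no-stress. Tspan2 read 171, 152, 112, 136 and 131 CPM in the F1 no-stress mice and 111, 140, 187, 162 and 128 CPM in the F1 stress mice. Hapln2 read 11.4, 8.16, 4.9, 8.2 and 6.73 CPM in the F1 no-stress mice and 6.42, 8.03, 11.1, 9.58 and 5.83 CPM in the F1 stress mice. Gal3st1 read 6.15, 5.47, 3.24, 4.62 and 2.75 CPM in the F1 no-stress mice and 3.17, 4.62, 5.5, 4.93 and 6.41 CPM in the F1 stress mice. For Gal3st1 and Hapln2 the lowest mice were in part others, mouse 10 for Gal3st1 in no-stress and mouse 5 for Hapln2 in stress. Apod read 132, 143, 86.8, 108 and 93.4 CPM in the F1 no-stress mice and 85.7, 89.7, 132, 125 and 85.8 CPM in the F1 stress mice. Enpp2 read 200, 181, 131, 154 and 150 CPM in the F1 no-stress mice and 154, 141, 202, 189 and 176 CPM in the F1 stress mice. Ermn read 72.3, 65.8, 40.2, 53.7 and 54.8 CPM in the F1 no-stress mice and 41.8, 46.8, 70.5, 69.8 and 43.8 CPM in the F1 stress mice. Mouse 8 was the lowest F1 no-stress mouse in these last 3 genes.

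In F2, stress was set against no-stress lineage. None of the 31 genes passed in edgeR, where 7.92% of all genes were called (1324, of which 441 were higher and 883 lower in stress). Limma-voom called 0 of the 31 as well. DESeq2 called 2, both lower in stress (Hapln2, adjusted p = 0.0188, and Gal3st1, 0.0364), with 14.9% of genes called. It gave no adjusted p for Nkx6-2. Unadjusted p was under 0.05 for 3 of the 31 genes, Hapln2, Gal3st1 and Sox10, and for 25.6% of all genes (4274). Fitted on the 10 F2 libraries alone, 0 of all genes passed. The median log2 fold change was -0.07 for the set, with 8 positive and 23 negative, and 0 for all genes. With each mouse left out in turn, the median of the set ran from -0.2 without mouse 17 to 0.05 without mouse 14. Its sign therefore depended on mouse 14. The 31 genes moved together between mice, so the 8 and 23 are not separate observations.

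Hapln2, a link protein of the matrix around nodes of Ranvier, had the lowest fold change, -0.83 ± 0.259 (edgeR, adjusted p = 0.0528). In F2 it read 11.7, 6.07, 8.77, 8 and 13.9 CPM in the F2 no-stress mice and 6.56, 5.74, 4.09, 3.45 and 7.48 CPM in the F2 stress mice. The means were 9.7 ± 3.12 CPM and 5.46 ± 1.68 CPM (SD, n = 5 each), and the groups overlapped. It passed in edgeR when mouse 6, 8 or 15 was left out (adjusted p = 0.0451, 0.0454 and 0.024). With an offset for GC content and length it was -0.60 ± 0.259 (adjusted p = 0.29).

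For Sox10 and Gal3st1 every F2 stress mouse lay below every F2 no-stress mouse, which held for 4.61% of all genes in either direction. Sox10 read 42.1, 28.7, 32.3, 32.6 and 36.4 CPM in the F2 no-stress mice and 27, 23, 25.3, 14.6 and 26.8 CPM in the F2 stress mice, a log2 fold change of -0.56 ± 0.205 (edgeR, adjusted p = 0.0919). In F1 it read 33.9, 30.9, 17.9, 26.2 and 16.7 CPM in the F1 no-stress mice and 17.1, 25.2, 29.1, 32 and 22.1 CPM in the F1 stress mice, and the groups overlapped. Gal3st1 read 7.72, 6.22, 7.4, 6.49 and 6.42 CPM in the F2 no-stress mice and 4.99, 4.53, 5.02, 3.66 and 4.83 CPM in the F2 stress mice, a log2 fold change of -0.57 ± 0.195 (adjusted p = 0.0725). Both genes are rich in GC, at 61.8% and 59.5% of their longest transcripts, and with the GC and length offset they gave -0.15 ± 0.191 and -0.25 ± 0.171.

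The proteolipid Mal had the highest fold change, 0.48 ± 0.273 (edgeR, adjusted p = 0.281). In F2 it read 283, 166, 279, 258 and 336 CPM in the F2 no-stress mice and 399, 332, 592, 122 and 398 CPM in the F2 stress mice. Mouse 14 was the lowest of the 10 and mouse 13 the highest, mice 11 and 15 lay above every F2 no-stress mouse, and mouse 12 lay above 4 of the 5. Tspan2, a tetraspanin of the myelin membrane, came next at 0.41 ± 0.202 (adjusted p = 0.207). It read 145, 104, 152, 141 and 195 CPM in the F2 no-stress mice and 217, 183, 275, 106 and 199 CPM in the F2 stress mice. Both values moved with single mice. Without mouse 14 both passed, Mal at 0.70 (adjusted p = 0.0247) and Tspan2 at 0.57 (0.0357), and without mouse 13 Mal was at 0.24 and Tspan2 at 0.26.

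Other structural genes gave smaller or opposite values in F2. Mbp was at -0.45 ± 0.245 (edgeR, adjusted p = 0.255) and Mag at -0.47 ± 0.259 (0.265), while Cnp was at -0.01 ± 0.244 and Mobp at 0 ± 0.293. Leaving out each mouse in turn, Mbp ran from -0.67 without mouse 15 to -0.29 without mouse 14, and Mag from -0.61 to -0.28 without the same mice. Mog ran from 0.11 without mouse 17 to 0.45 without mouse 14. Mog was at 0.23 ± 0.254, with 61.3, 40.4, 65.9, 56.8 and 82.4 CPM in the F2 no-stress mice and 87.2, 70.6, 86.1, 24.8 and 91.1 CPM in the F2 stress mice. Mobp read 697, 359, 585, 569 and 832 CPM in the F2 no-stress mice and 495, 536, 1040, 218 and 750 CPM in the F2 stress mice, with mouse 13 highest and mouse 14 lowest of the 10. Among secreted and lipid-handling proteins, Apod, an apolipoprotein of oligodendrocytes, was at 0.14 ± 0.261 and Enpp2 at 0.11 ± 0.198. Apod read 114, 61, 127, 100 and 141 CPM in the F2 no-stress mice and 121, 117, 172, 48.8 and 140 CPM in the F2 stress mice, and Enpp2 read 151, 111, 167, 151 and 225 CPM in the F2 no-stress mice and 211, 196, 176, 88.8 and 194 CPM in the F2 stress mice. In both genes mouse 14 lay below all the others and the groups overlapped.

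In F2 the sign of the fold change differed between GC classes. Libraries differed in a trend with GC content, taken as the median log2 deviation from the all-library mean in the top GC decile of genes minus that in the bottom decile. It was 0.34 ± 0.274 in F2 no-stress and -0.194 ± 0.255 in F2 stress (SD, n = 5 each), and -0.07 ± 0.232 and -0.068 ± 0.142 in F1 no-stress and F1 stress. Genes were split by GC content into 3 equal classes. In the GC-rich class (52.7% to 71.3%) all 14 of the set were at or below 0 in F2, with a median of -0.34, beside -0.22 for all genes of that class. In the GC-poor class (28.7% to 46.4%) 5 of 7 were positive, with a median of 0.09, beside 0.15. In the middle class 7 of 10 were negative, with a median of -0.05, beside 0.04. With the offset the 3 medians of the set were -0.13, -0.04 and -0.12 in the order rich, poor and middle, with 12 of 14, 5 of 7 and 7 of 10 negative. In that fit 0 of 31 genes passed, and 32 genes passed in all (the medians of all genes in the 3 classes were -0.03, 0 and -0.01). Mag (57.6% GC) then stood at -0.22 ± 0.249 and Mbp (51% GC) at -0.46 ± 0.247. What made the GC trend differ between groups was not tested.

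**Figure D4:**
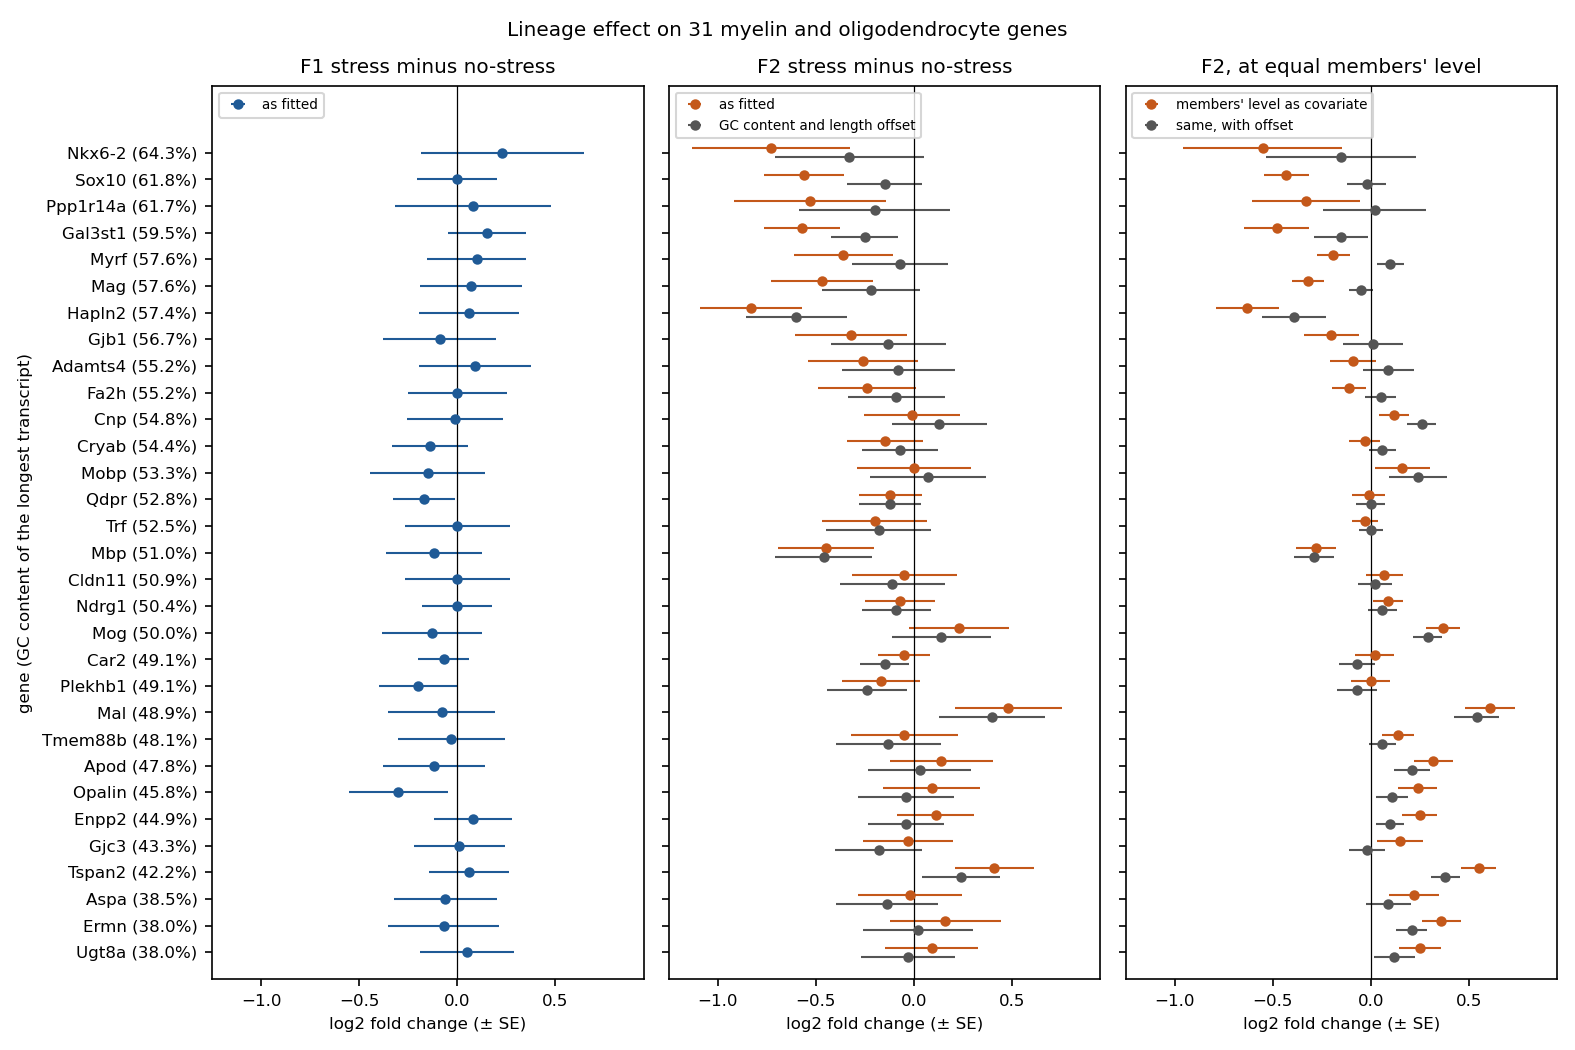
Log2 fold change of stress against no-stress lineage (horizontal axis, whiskers of 1 SE) for the 31 genes, ordered from GC-rich at the top to GC-poor at the bottom, in F1, in F2, and in F2 with the mean level of the 31 genes as a covariate. Grey points are fitted with an offset for GC content and length. F1 values lie around 0, F2 values are negative toward the top, and Mal and Tspan2 lie to the right of 0 in both F2 panels.

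Since the 31 genes moved together between mice, the comparison was also fitted with the mean log2 CPM of the 31 genes in each library as a covariate, a fit added after the data had been seen. It asks which genes differed relative to the set, so that a rise of some goes with a fall of others. Each of the 31 is part of its own covariate. In F2 the covariate took the standard error of Mag from 0.259 to 0.0797 and of Tspan2 from 0.202 to 0.0896. That of Nkx6-2 went from 0.404 to 0.406. Counts of the 31 with this covariate, here and below, are therefore not comparable with the shares of all genes printed with them. In F2, 8 of 31 genes passed this fit, and 8.93% of all genes were called. Those that rose in stress were Tspan2 (0.55 ± 0.0896, adjusted p = 0.00522), Mal (0.61 ± 0.127, 0.0106), Mog (0.37 ± 0.0875, 0.0171), the cytoskeletal protein gene Ermn (0.36 ± 0.1, 0.032) and Apod (0.32 ± 0.0988, 0.049). Those that fell were Mag (-0.32 ± 0.0797, 0.0218), Hapln2 (-0.63 ± 0.16, 0.0223) and Sox10 (-0.43 ± 0.115, 0.0264). Ermn read 57.6, 28.7, 57.7, 54 and 75.4 CPM in the F2 no-stress mice and 73.8, 66.4, 79.8, 21.8 and 63.4 CPM in the F2 stress mice, with mouse 14 lowest of the 10. Opalin, at 0.24 ± 0.0988 in this fit (adjusted p = 0.125), read 22.8, 14.3, 20.6, 24.2 and 30.9 CPM in the F2 no-stress mice and 29.7, 22, 29.4, 8.94 and 30.5 CPM in the F2 stress mice. All are from edgeR with Benjamini-Hochberg adjustment, and 0 of 31 passed the same fit in F1.

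The 3 genes that fell are GC-rich and the 5 that rose are not. With the GC and length offset in the same fit, Mal (0.54 ± 0.115) and Tspan2 (0.38 ± 0.0731) passed, both at an adjusted p of 0.0402 with 0.575% of all genes called. Mag was then at -0.05 ± 0.0594, Sox10 at -0.02 ± 0.1, Hapln2 at -0.39 ± 0.164 and Mog at 0.29 ± 0.0736 (adjusted p = 0.0712). Leaving out each of the 20 mice in turn, Mal passed this fit in 9 and Tspan2 in 10. Without the offset Tspan2 passed in 20 of 20, Mal in 19, Mog in 17, Hapln2 in 16, Mag, Ermn and Sox10 in 15 each, and Apod in 6. The mice whose removal ended most of those calls were 11, 13, 16 and 17. The largest adjusted p over the 20 removals was 0.0429 for Tspan2, 0.0625 for Mal, 0.0726 for Mog, 0.0798 for Hapln2, 0.128 for Mag, 0.137 for Sox10, 0.146 for Ermn and 0.194 for Apod, and with the offset it was 0.219 for Mal and 0.199 for Tspan2.

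The remaining comparisons reuse the same 4 groups. Generation was compared within each lineage, and the lineage effect in F2 was set against that in F1 as an interaction. The labels give no batch or date, so a difference between generations cannot be told apart from a difference between batches. For the interaction 0 of 31 genes passed, beside 2.52% of all genes, with 2 of the 31 (Gal3st1 and Hapln2) at an unadjusted p under 0.05, beside 21.2% of all genes (3551). DESeq2 and limma-voom also called 0, but DESeq2 gave no adjusted p for Nkx6-2 or Ppp1r14a. The median was -0.02, beside -0.01 for all genes, and the extremes were Nkx6-2 at -0.96 ± 0.579 and Mal at 0.56 ± 0.386. With the level of the set as a covariate, Mog, Mal, Opalin and Tspan2 rose and Mag fell, beside 4.08% of all genes, and with the offset as well 0 of all genes passed. In the F2 no-stress mice Nkx6-2 read 3.94, 1.63, 3.84, 3.46 and 3.75 CPM, and in the F2 stress mice 1.43, 1.06, 1.43, 2.89 and 3.17 CPM, overlapping.

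Between F2 and F1 within the no-stress lineage, 0 of 31 genes passed in edgeR and in limma-voom, beside 2% of all genes. DESeq2 called Gal3st1 higher in F2 and gave no adjusted p for Nkx6-2 or Ppp1r14a. The median was 0.15, beside 0.02 for all genes, 24 of 31 were positive, and 2 of 31 had an unadjusted p under 0.05 beside 20.2% of all genes (3386). Gal3st1 was at 0.62 ± 0.196 (edgeR, adjusted p = 0.0881) and passed without mouse 6 (0.76, adjusted p = 0.037). Nkx6-2 was the highest at 0.77 ± 0.405 and Aspa, the enzyme that splits N-acetylaspartate, the lowest at -0.09 ± 0.264. Aspa read 23.4, 21.9, 13, 17.4 and 19.6 CPM in the F1 no-stress mice and 17, 8.3, 20.2, 15.4 and 28.9 CPM in the F2 no-stress mice, with mouse 20 highest and mouse 17 lowest of the 10. With the level of the set as a covariate Mag passed (0.32 ± 0.0796, adjusted p = 0.0406, beside 2.25% of all genes), and with the offset as well it was at 0.12 ± 0.0595 (0.369). Within the stress lineage 0 of 31 passed in edgeR, DESeq2 and limma-voom, beside 0.012% of all genes. There the median was 0.01, equal to that of all genes, 4 of the 31 had an unadjusted p under 0.05 beside 6.99% of all genes (1169), and the extremes were Mal at 0.71 ± 0.274 (edgeR, adjusted p = 0.649) and Hapln2 at -0.59 ± 0.26. Mog was at 0.62 ± 0.256 there and passed with the level of the set as a covariate (0.49 ± 0.0873, adjusted p = 0.0436, beside 0.0359% of all genes), and with the offset as well (0.42 ± 0.0733, 0.035).

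Few genes of related lists passed between groups. For F2 against F1, generation and batch cannot be told apart, as above. Of the 18 precursor and newly formed oligodendrocyte genes, Gpr17, a receptor of cells committed to differentiate, rose in F2 against F1 in both lineages, where 2% of all genes were called in no-stress and 0.012% in stress. In edgeR it was at 0.81 ± 0.12 (adjusted p = 0.0101) in no-stress and at 0.80 ± 0.119 (adjusted p = 0.0225) in stress, and with the GC and length offset it was at 0.73 (0.038) and 0.85 (0.00402). Leaving out each mouse in turn, Gpr17 passed in 17 of 20 fits in no-stress (largest adjusted p = 0.0653) and in 14 in stress (0.151). Fitted on the compared groups alone, 0 of all genes passed in either lineage, Gpr17 included. Scaled by library totals, Gpr17 did not pass in stress. Neu4, a sialidase, rose in the no-stress lineage (0.58 ± 0.112, adjusted p = 0.0233), in 15 of 20 fits leaving out a mouse (largest adjusted p = 0.0926), with 0.60 (0.0763) under the offset, and in stress gave 0.58 ± 0.111 (adjusted p = 0.124). The median of that list was 0.26 in no-stress and 0.15 in stress, beside 0.15 and 0.01 for the 31 myelin genes.

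In F2, Sec14l5, 1 of 32 further mature oligodendrocyte and myelin genes, fell in stress (-0.88 ± 0.247, edgeR, adjusted p = 0.0341). Fasn, the fatty acid synthase and 1 of 26 tested lipid genes, fell as well (-0.49 ± 0.143, adjusted p = 0.0394). So did 3 of 10 endothelial markers, Egfl7, Tie1 and Cldn5 (-0.57, -0.58 and -0.49). Of all genes, 7.92% were called. The endothelial list had 5 positive and 5 negative fold changes, with a median of -0.01. The lipid list had 15 positive and 11 negative (median 0.05). The further oligodendrocyte and myelin list had 10 positive and 22 negative (median -0.1). Leaving out each mouse in turn, Sec14l5 passed in 14 of 20 fits (largest adjusted p = 0.0945), Fasn in 11 (0.127), Egfl7 in 20 (0.0449), Tie1 in 15 (0.0963) and Cldn5 in 8 (0.119). With the offset none of these 5 passed, at adjusted p values of 0.159 for Sec14l5, 0.485 for Fasn, 0.0992 for Egfl7, 0.264 for Tie1 and 0.677 for Cldn5. Cldn5, a tight junction protein of vessels, also rose in F2 against F1 in the no-stress lineage (0.60 ± 0.144, adjusted p = 0.0415), in 7 of 20 fits leaving out a mouse (largest adjusted p = 0.136), and was at 0.36 (0.272) under the offset.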

How the data were processed

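RNA from bilateral amygdala punches of 20 mice, 5 in each of 4 groups, was sequenced as stranded poly-A libraries, per the labels' protocols. The authors deposited 1 table of raw counts per gene, with 29671 rows, and the submitters' processing notes name STAR 2.5.3a and the build GRCm38. No label or file header names the counting tool, its annotation or strand setting. Column totals lay between 13654890 and 13714805, closer than separate libraries usually fall, and whether reads were drawn to a common number before counting is not stated.

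Genes with low counts were removed by filterByExpr, leaving 16727. All 20 libraries were fitted in 1 model with a mean for each group (edgeR 4.0.16 in R 4.3.3, TMM factors, robust quasi-likelihood test), with Benjamini-Hochberg adjustment over all genes tested at a threshold of 0.05. Slopes on Mag were fitted in the same way on its log2 CPM (prior count 2), centred within each group. DESeq2 1.42.0, limma-voom (limma 3.58.1), other scalings and filters, fits on the compared groups alone, leaving out each mouse, and an offset for each library's spline trend (5 degrees of freedom) with GC content and length of the longest GENCODE M21 transcript were alternatives. The offset had values for 16692 of the tested genes, all 31 members included. Fits with the members' mean level as a covariate were added after the data had been seen. The code was tested on simulated data.

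The 31 genes and the comparison lists were chosen with earlier results of these data known. Full values were given for Mag, Mog, Mbp, Mobp, Cnp, Opalin, Myrf, Sox10, Car2, Apod and Enpp2, for each gene of the set that passed an alternative, and for the highest and lowest fold change of each comparison. From other lists, up to 4 passing genes with the smallest p were named, and outside them the 5 genes with the smallest p for the slope on Mag at a mean of at least 1 CPM. Values of further genes named in the text were chosen after they had been seen.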

Additional observations from a re-analysis of the deposited data

Results flagged for a closer look

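Of 124 group tests (31 genes in 4 groups of 5 mice), 6 held 1 mouse far outside the rest by the gap between it and its nearest neighbour. Chance flags about 1 in 20 such groups, and the 6 are near that share. The 31 genes moved together between mice, so flags of the same mouse are not separate observations. In 5 of the 6 this was mouse 14 of F2 stress. Tmem88b, an oligodendrocyte membrane protein gene, read 19.8 CPM there and 62.3 in the next lowest mouse, Ermn read 21.8 and 63.4, and Trf, transferrin, 83.4 and 228. Aspa read 9.43 CPM in mouse 14 with 18.3 next, and Enpp2 read 88.8 with 176 next. The last was the transcription factor Nkx6-2 in mouse 17 of F2 no-stress, at 1.63 CPM with 3.46 next.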

How the results depend on the processing

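No paired analysis was possible because the labels give each mouse a number of its own. None of the 31 genes was called in the 5 comparisons as reported, so no call could reverse. The count of all genes called moved most. In F1 it was 0 in edgeR, 2 by DESeq2, 1 scaled by library totals and 0 to 1 leaving out each mouse. In F2 it was 1324, with 2054 by DESeq2, 737 without the low-count filter, 32 with the GC and length offset, 0 on the compared groups alone, 96 with the members' level and offset together, and 241 to 2431 leaving out each mouse. For the interaction it was 421, with 1240 by DESeq2, 100 without the filter, 0 with the offset, 682 with the members' level, 0 with both, and 0 to 1501 leaving out each mouse. Between generations in no-stress it was 335, with 1028 by DESeq2, 208 by library totals, 61 without the filter, 1 with the offset, 0 on the compared groups alone, 5 with level and offset, and 0 to 725 leaving out each mouse. In stress it was 2, with 6 by DESeq2, 1 by limma-voom, 0 by library totals, 4 with the offset, 0 on the compared groups alone, 6 with the members' level, 6 with both, and 0 to 10 leaving out each mouse. For the slope on Mag it was 655, and 392 to 900 leaving out each mouse, the highest without mouse 14. Members called in F2 were 2 by DESeq2, 8 with the members' level, 2 with level and offset, and 0 to 2 leaving out each mouse. In the interaction they were 5 with the members' level. Between generations they were 1 by DESeq2, 1 with the members' level and 0 to 1 leaving out each mouse in no-stress, and 1 with the members' level and 1 with both in stress. Fold changes near 0 in F2 crossed it, none of them called. Mobp was 0 by DESeq2, RLE factors, library totals and on the compared groups alone, 0.01 without the filter and 0.07 with the offset. With the offset Cnp was 0.13, Opalin -0.04, Ugt8a -0.03 and Enpp2 -0.04, and Aspa was 0.03 by limma-voom. With the members' level Mobp was 0.16, Cnp 0.12, Cldn11 0.07, Gjc3 0.15, Aspa 0.22, Ndrg1 0.09, Car2 0.02 and Tmem88b 0.14. With level and offset Mobp was 0.24, Cnp 0.26, Cldn11 0.02, Gjb1 0.01, Aspa 0.09, Cryab 0.06, Myrf 0.10, Fa2h 0.05, Ppp1r14a 0.02, Ndrg1 0.06, Tmem88b 0.06 and Adamts4 0.09. Leaving out each mouse, F2 values ran from -0.28 to 0.21 for Mobp, -0.14 to 0.19 for Cnp, -0.03 to 0.31 for Opalin, -0.16 to 0.18 for Cldn11, 0 to 0.37 for Ermn, -0.03 to 0.28 for Ugt8a, -0.14 to 0.21 for Gjc3, -0.2 to 0.22 for Aspa, -0.32 to 0.01 for Trf, -0.29 to 0.02 for Cryab, -0.25 to 0.01 for Qdpr, 0 to 0.27 for Enpp2, -0.02 to 0.34 for Apod, -0.19 to 0.05 for Ndrg1, -0.16 to 0.06 for Car2 and -0.19 to 0.17 for Tmem88b, and between generations in no-stress from -0.33 to 0.09 for Aspa. Apart from settings that tested fewer libraries, the cause was not tested. The median standard error of the 31 genes, 0.253 on the log2 scale at 5 mice in each group, sets how small a lineage difference could be told from 0.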
